A study of Arabidopsis thaliana with 6 samples.

Results

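The 42 genes described here encode the histones of Arabidopsis thaliana: 8 H4, 5 H3.1, 3 H3.3, 1 centromeric H3 (CENH3), 10 H2B, 4 H2A, 3 H2A.W, 2 H2A.X, 3 H2A.Z and 3 linker histone H1 genes. They were chosen by locus and found through probes that the deposited table of array elements matches to 1 locus only. All 42 had such a probe, of 28309 loci that did, and all 42 were among the 20276 loci that passed the background filter. RNA was measured on 1-colour Agilent arrays in young leaves of 3 genotypes, with 2 arrays from separate biological samples each. Wild-type Col was compared with ore15-1D and with ore15-2, which carry different alleles of AT1G31040 (ORE15), a gene for a PLATZ family protein, and no other allele or treatment is named in the labels. ore15-1D is a dominant and ore15-2 a loss-of-function allele in the known use of these lines. Plants stood on soil for 13 days with 16 h of light and 8 h of darkness, and leaves aged 4 days were harvested at 5 h after the lights came on.

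Nucleosomes wrap DNA around an octamer of H2A, H2B, H3 and H4. The bulk of these proteins is made from many similar gene copies whose transcripts rise in S phase, when new DNA has to be packaged, and in plants H3.1 is the H3 form laid down behind the replication fork. Replacement variants, of which H3.3 and H2A.Z are the best known, are made and inserted outside S phase as well, H3.3 mainly over transcribed genes and H2A.Z near transcription starts. Linker histone H1 sits on the DNA between nucleosomes. In a young leaf, cells divide first and later only expand or replicate their DNA without dividing. In the counts below, the 27 genes of the H4, H3.1, H2B and H2A classes are called replication histones and the 6 genes of H3.3 and H2A.Z replacement histones, a division by class. The other 9 genes, of CENH3, H2A.W, H2A.X and H1, are described on their own.

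ORE15 was 7.55 ± 0.67 log2 units higher in ore15-1D than in Col (limma, adjusted p = 0.00547), with both arrays of either genotype above background. It read -4.90 and -4.79 in Col and -6.38 and -8.44 in ore15-2, where 1 of 2 arrays was above background, so that the fitted difference of -2.56 (limma, adjusted p = 0.125) rests in part on an unmeasured spot. The 75th percentile of the array signal was 1249 and 1338 in ore15-1D, 927 and 859 in Col, and 809 and 747 in ore15-2, and no spot was saturated. Slide 1 held the ore15-1D arrays with Col replicate 1, and slide 2 the ore15-2 arrays with Col replicate 2. All 6 leaf markers read well above background, and 5 of them fell in ore15-1D (median -0.51). Of 6 shoot meristem markers STM, WUS, CLV3, KNAT1 and KNAT2 did not pass the background filter, and CLV1 fell by 0.78 in ore15-1D (limma, adjusted p = 0.011). Among 5 floral markers PI alone passed the filter, and it rose by 1.88 in ore15-2 (limma, adjusted p = 0.0233). Of 6 root markers PLT1 did not pass the filter, SHR rose in ore15-1D (0.44) and SCR did not pass the test (0.30), and CASP1 fell by 1.51 there. NRT2.1 and IRT1 were not well above background on either ore15-1D array. Their fitted differences from Col, which rest on these dim spots, were -4.61 and -1.28 (limma, adjusted p = 0.0062 and 0.00807). With ore15-1D values raised at least to the lowest level that read well above background on the array, NRT2.1 was 15.5-fold lower than in Col. The IRT1 values were not below that level and yet not well above background. That level is therefore no detection limit, and it gives no bound for either gene. The part of these tissues in the histone differences was not tested.

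Levels below are log2 signals relative to the 75th percentile of the same array, given as ore15-1D replicates 1 and 2, Col replicates 1 and 2, and ore15-2 replicates 1 and 2. Differences are in log2 units with the standard error (SE) of a limma fit to all 6 arrays, with n = 2 per genotype. A gene is said to have risen or fallen where its two-sided test gave an adjusted p, by Benjamini-Hochberg over all loci tested, below 0.05. With so few arrays the precision is low, and both mutants are set against the same Col arrays, so the differences from Col share those arrays' error. Different probes are never set against each other by level.

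Histone genes were higher in ore15-1D leaves across most classes. Of the 42 genes 27 rose and 2 fell against Col, and 13 did not pass, with a median difference of 0.70 against -0.01 over all 20272 loci tested. The background was wide, since 40.6% of all loci tested changed, 18.6% upward and 22% downward. Both ore15-1D arrays lay above both Col arrays for 34 of the 41 genes measured on all arrays and below them for 5. Of all loci 40.1% and 40.6% did so. The direction was the same within slide 1, where 36 of 42 genes were higher in ore15-1D than on the Col array, with a median of 0.69. The number of calls depended on single arrays: it was 0 without either ore15-1D array, 7 without Col replicate 1 and 3 without Col replicate 2, while the median difference stayed between 0.64 and 0.76 in these fits. The 3 calls left without Col replicate 2 were HTA7, HTA12 and HIS1-3. After normexp background correction with the 75th percentile no histone gene and no other locus passed. An unadjusted p below 0.05 was found there for 26 of the 42 and for 2299 of 20272 loci.

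**Figure D1:**
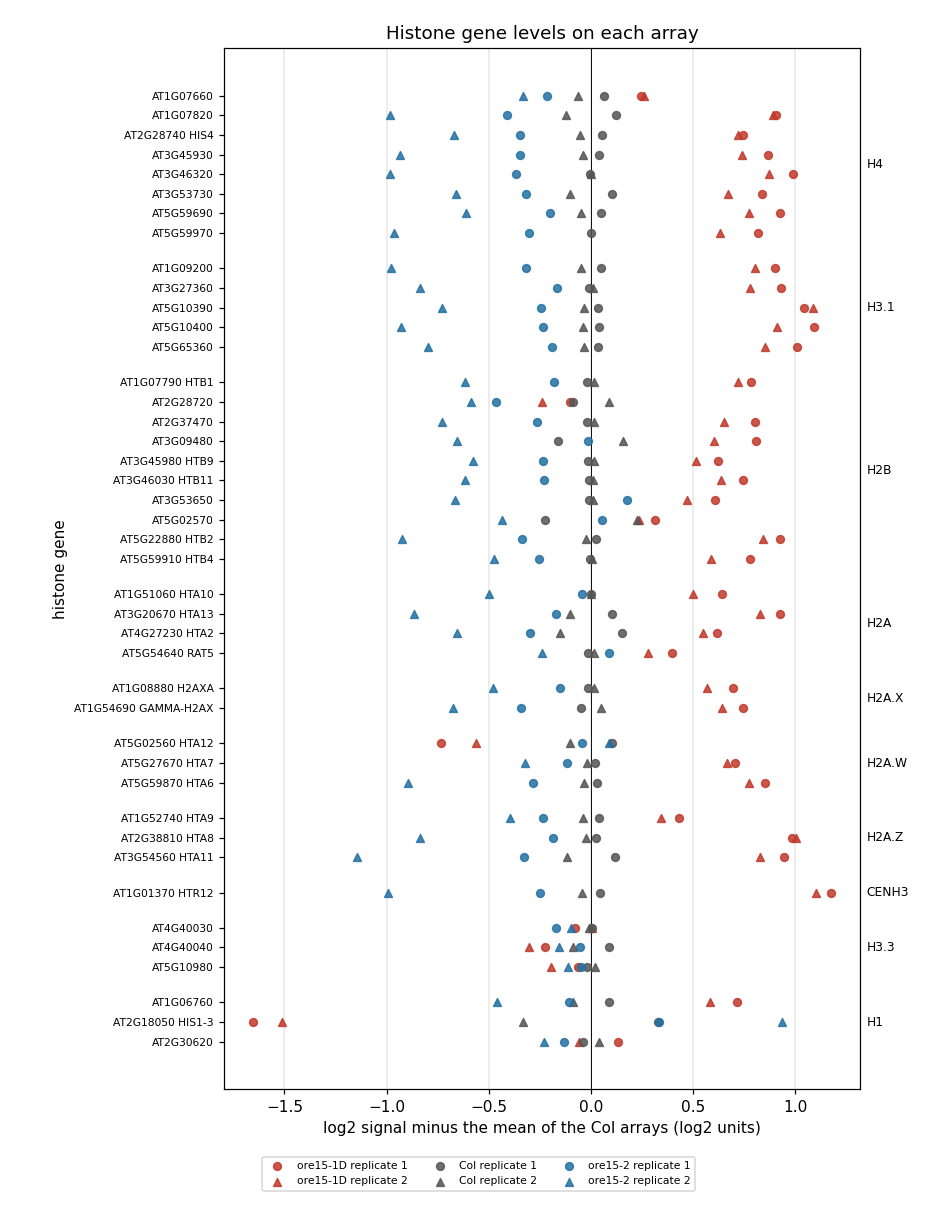
Level of each histone gene on each array, as the log2 signal minus the mean of the Col arrays of the same gene (x axis, log2 units; for AT5G59970 Col replicate 1 alone). Genes are grouped by class, circles are replicate 1 and triangles replicate 2. The ore15-1D points lie right of both Col points for 34 of the 41 genes measured on all arrays, and those of H3.3 do not.

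All 5 H3.1 genes rose in ore15-1D, by 0.85 to 1.06. The H3.1 gene AT5G10390 read 4.33 and 4.37 in ore15-1D, 3.32 and 3.25 in Col, and 3.04 and 2.56 in ore15-2. The genotypes did not overlap, with ore15-1D highest and ore15-2 lowest. Its rise was 1.06 ± 0.17, or 2.09-fold (limma, adjusted p = 0.013). AT5G10400, its direct neighbour on chromosome 5, read 4.96 and 4.77, then 3.90 and 3.82, then 3.63 and 2.93, in the same order of genotypes, and rose by 1.00 ± 0.24 (limma, adjusted p = 0.0319). Their probes lie at chromosome 5 positions 3269151 to 3269210 and 3270558 to 3270617 of TAIR10. AT5G65360 rose by 0.93 ± 0.22, and AT1G09200 and AT3G27360 by 0.85 and 0.85, each from probes elsewhere in the genome.

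No H3.3 gene passed in ore15-1D. AT4G40030 read 4.60 and 4.69 in ore15-1D, 4.69 and 4.67 in Col, and 4.51 and 4.58 in ore15-2. Its ore15-1D and Col arrays overlapped, with a difference of -0.04 (95% interval of the fit -0.24 to 0.17, adjusted p = 0.733). AT4G40040, the gene next to it, read 5.29 and 5.22, then 5.61 and 5.43, then 5.47 and 5.37. Both ore15-1D arrays were lower than both Col arrays here, by 0.26 (95% interval of the fit -0.52 to -0.005, unadjusted, adjusted p = 0.0911). AT5G10980 read 4.85 and 4.72, then 4.89 and 4.93, then 4.87 and 4.80, a difference of -0.13 (interval -0.35 to 0.10, adjusted p = 0.273). The upper ends of these unadjusted intervals, 0.17 at most, lie below the lower ends of the H3.1 intervals, the lowest of which is 0.25 (AT3G27360). Both sets of intervals share the Col arrays. The median of the 3 H3.3 genes was -0.13, from -0.19 to 0.33 over the alternatives tried, and the highest value came from normexp with the 75th percentile, which moved the median of all loci to -0.26 and that of H3.1 to 1.37.

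Of the 8 H4 genes 6 rose in ore15-1D. H4 has no replacement variant among these genes, and its copies encode the partner of H3 in every nucleosome. AT3G46320 read 4.45 and 4.33 in ore15-1D, 3.46 and 3.46 in Col, and 3.09 and 2.48 in ore15-2. The genotypes did not overlap, and the rise of 0.93 ± 0.21 was the largest of the class (limma, adjusted p = 0.0277). HIS4 read 3.47 and 3.45, then 2.78 and 2.67, then 2.38 and 2.06, and rose by 0.73 ± 0.13 (limma, adjusted p = 0.0157). AT1G07660 had the smallest difference, with 1.78 and 1.80 in ore15-1D, 1.61 and 1.48 in Col, and 1.33 and 1.21 in ore15-2. It did not pass at 0.25 ± 0.09 (limma, adjusted p = 0.082). The other gene that did not pass was AT5G59970, whose spot on Col replicate 2 carried an outlier mark and was dropped, so that it rests on 1 Col array (0.72 ± 0.32, limma, adjusted p = 0.147).

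Of the 10 H2B genes 6 rose, among them HTB2, HTB1, HTB11, HTB4 and HTB9. HTB2 had the largest difference of the class, with 4.88 and 4.80 in ore15-1D, 3.98 and 3.93 in Col, and 3.61 and 3.03 in ore15-2. Its rise was 0.88 ± 0.20 (limma, adjusted p = 0.0279). AT2G28720 did not follow its class. It read 0.52 and 0.38 in ore15-1D, 0.53 and 0.71 in Col, and 0.15 and 0.03 in ore15-2, so that both ore15-1D arrays were lower than the Col arrays and both ore15-2 arrays lower still. Its difference in ore15-1D was -0.17 ± 0.11 (limma, adjusted p = 0.253). AT2G28720 and HIS4 lie on chromosome 2 with 2 genes between them. Among the remaining H2B genes, AT3G09480 was at 0.70 (adjusted p = 0.0802), AT3G53650 at 0.54 (0.181) and AT5G02570 at 0.27 (0.364), and none passed.

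Of the 4 H2A genes HTA13 and HTA2 rose, by 0.88 (limma, adjusted p = 0.0444) and 0.58 (adjusted p = 0.0475). HTA10 was at 0.57 (adjusted p = 0.0524) and RAT5 at 0.34 (adjusted p = 0.1). RAT5, known from a mutant resistant to Agrobacterium transformation, had both ore15-1D arrays above both Col arrays, but its difference was -0.47 after normexp with the 75th percentile. Both H2A.X genes, whose proteins are phosphorylated at DNA breaks, rose. GAMMA-H2AX was higher by 0.70 ± 0.14 (limma, adjusted p = 0.0194) and H2AXA by 0.63 ± 0.13 (adjusted p = 0.0227).

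The H2A.W genes, whose proteins mark heterochromatin, split. HTA7 read 2.55 and 2.51 in ore15-1D, 1.86 and 1.82 in Col, and 1.72 and 1.52 in ore15-2, and rose by 0.69 ± 0.10 (limma, adjusted p = 0.0104), the lowest adjusted p of the 42 genes. HTA6 rose by 0.81 ± 0.21 (adjusted p = 0.0382). HTA12 went the other way. It read -2.83 and -2.66 in ore15-1D, -1.99 and -2.20 in Col, and -2.14 and -2.01 in ore15-2, with ore15-1D below both other genotypes. Its fall was -0.65 ± 0.12 (limma, adjusted p = 0.0166), and it was -0.34 after normexp with quantile normalization. The HTA12 locus overlaps that of the H2B gene AT5G02570 in the RefSeq annotation, and whether the probes read both genes was not tested.

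CENH3, listed as HTR12, replaces H3 at centromeres and is needed to build the kinetochore. It read -0.18 and -0.25 in ore15-1D, -1.31 and -1.40 in Col, and -1.60 and -2.35 in ore15-2. The genotypes did not overlap, and its rise of 1.14 ± 0.25, or 2.20-fold, was the largest among the 42 genes (limma, adjusted p = 0.0257). The size depended on the background correction, at 0.79 after normexp with quantile normalization and 0.46 after normexp with the 75th percentile. Its probe spans an intron, with parts at chromosome 1 positions 145188 to 145207 and 145345 to 145384 of TAIR10.

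Of the 3 H2A.Z genes, the other replacement histones, 2 rose in ore15-1D. HTA8 read 1.18 and 1.20 in ore15-1D, 0.22 and 0.17 in Col, and 0.01 and -0.64 in ore15-2, and rose by 1.00 ± 0.22 (limma, adjusted p = 0.0261). HTA9 read 5.55 and 5.46, then 5.15 and 5.08, then 4.88 and 4.72, and rose by 0.39 ± 0.10 (adjusted p = 0.033). HTA11 read 4.11 and 3.99, then 3.28 and 3.05, then 2.83 and 2.02. It was at 0.89 ± 0.29 in ore15-1D and did not pass (limma, adjusted p = 0.0629). The genotypes did not overlap for any of the 3 genes.

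The 3 linker histone genes each did something else in ore15-1D. AT1G06760 rose by 0.65 ± 0.15 (limma, adjusted p = 0.0284). AT2G30620 was at 0.04 ± 0.10 (adjusted p = 0.768). HIS1-3, the H1 variant known to be induced by drought and low light, read -6.05 and -5.91 in ore15-1D, -4.06 and -4.72 in Col, and -4.06 and -3.46 in ore15-2. It was the lowest in ore15-1D, and its arrays were dim but above background on all 6. The fall was -1.58 ± 0.30 (limma, adjusted p = 0.0177). The size and the call depended on the processing: it was -1.16 after quantile normalization (adjusted p = 0.0566), -0.49 in the authors' deposited table (0.0909), and -0.31 after normexp with quantile normalization (0.109).

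**Figure D2:**
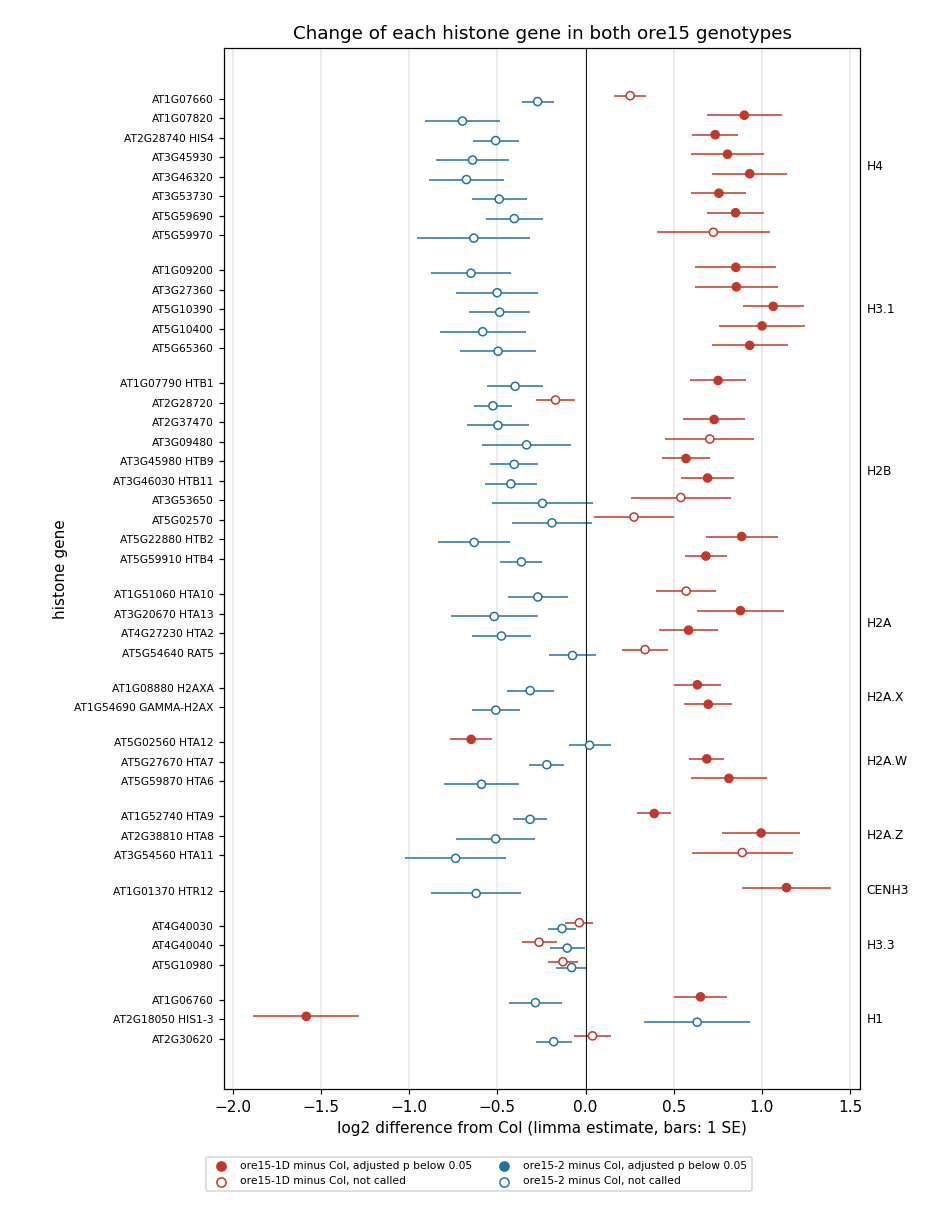
Difference of each histone gene from Col in ore15-1D (red) and ore15-2 (blue), in log2 units with bars of 1 SE of the limma fit. Filled points have an adjusted p below 0.05; 29 are filled in ore15-1D and 0 in ore15-2, and HTA12 and HIS1-3 are the filled points left of 0.

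Taken by role, 19 of the 27 replication histones rose in ore15-1D and 0 fell (median 0.73). Of the 6 replacement histones 2 rose, both H2A.Z, and the median of the 6 was 0.18. That median pools unlike classes, with -0.13 for the 3 H3.3 genes and 0.89 for the 3 H2A.Z genes. The H2A.Z means on the ore15-1D arrays were 0.79 and 0.73 relative to Col, and the replication means 0.74 and 0.64. The lower replacement values thus came from H3.3 alone. Of all loci tested 18.6% rose and 22% fell. The difference between the roles was not tested. A score was formed on each array as the mean over replication histones minus the mean over replacement histones, relative to Col, from the 26 and 6 genes measured on all arrays. It was 0.41 and 0.35 in ore15-1D, -0.03 and 0.03 in Col, and -0.04 and -0.23 in ore15-2. The ore15-1D arrays were above both Col arrays and the ore15-2 arrays below them. Mean differences from Col were 0.38 and -0.14, with a pooled SD between replicates of 0.09. ore15-2 replicate 1 lay within that SD of Col replicate 1, so the ore15-2 difference rests mainly on replicate 2. With H3.3 alone as the replacement class, a choice made after the values were seen, the differences were 0.83 and -0.35. A different share of cells in S phase and a different amount of histone RNA per cell cannot be told apart in these bulk samples.

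**Figure D3:**
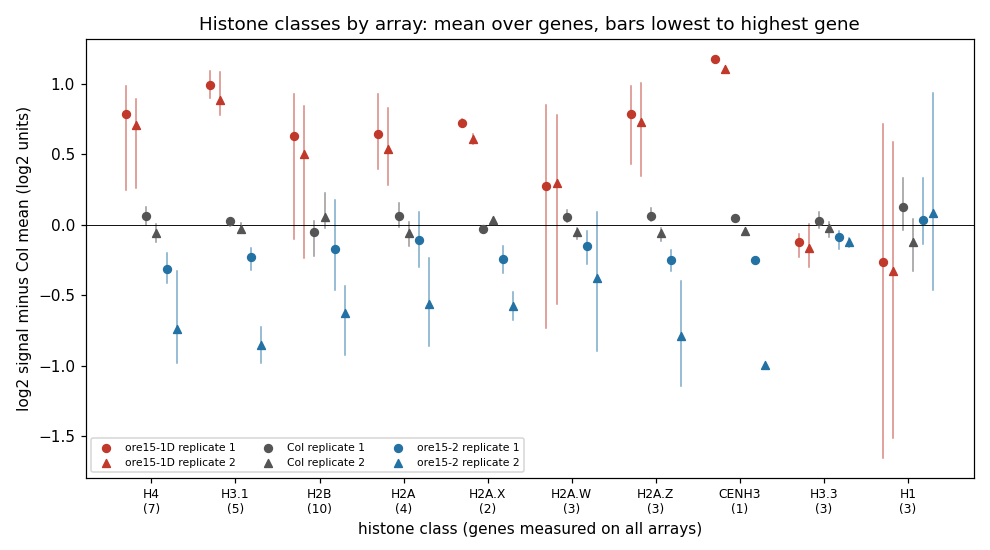
Mean log2 level of each histone class on each array, relative to the mean of the Col arrays (y axis, log2 units), with bars from the lowest to the highest gene of the class; the number of genes measured on all arrays is in brackets. The H3.1 means are 0.99 and 0.89 in ore15-1D and -0.23 and -0.86 in ore15-2, and the H3.3 means lie between -0.16 and 0.02 on all 6 arrays.

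In ore15-2 leaves 40 of the 42 histone genes had a negative difference from Col, but none passed. The limma test called 0 of the 42, and 18 had an unadjusted p below 0.05, where 4520 of 20270 loci did. The background was 3.74% of 20270 loci called, 2.17% upward and 1.57% downward. The median was -0.45, against 0.01 over all loci. Both ore15-2 arrays lay below both Col arrays for 34 of the 41 genes measured on all arrays, where 25.9% of all loci did. These ore15-2 arrays lay above both Col arrays for 1 gene, where 26.7% of all loci did. Within slide 2, 39 of 41 genes were lower than on the Col array, with a median of -0.42. After normexp with the 75th percentile the median of the histone genes was -0.04 and that of all loci -0.22, so that the sign relative to all loci turned under that correction.

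The lowest adjusted p in ore15-2 was that of the H2B gene AT2G28720, at -0.53 ± 0.11 (limma, adjusted p = 0.0813), whose levels are given above. It passed after normexp with quantile normalization (-0.50, adjusted p = 0.0363) and in the authors' deposited table (-0.52, adjusted p = 0.0413). The largest negative estimate was that of HTA11, at -0.74 ± 0.29 (adjusted p = 0.227). AT1G07820, an H4 gene, read 3.13 and 2.89 in Col and 2.60 and 2.03 in ore15-2, and was at -0.70 ± 0.21 (adjusted p = 0.159). The H3.1 genes lay between -0.65 and -0.49, and the H3.3 genes between -0.13 and -0.08 (adjusted p from 0.38 to 0.61). HIS1-3 was again opposite to most, at 0.63 ± 0.30 (adjusted p = 0.293), and HTA12 was at 0.02.

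The ore15-2 values rested largely on 1 array. Replicate 2 was the lowest of all 6 arrays for 36 of 41 genes measured on all of them, and 38 of 41 were lower on replicate 2 than on replicate 1, by a median of 0.41. Over all 20212 loci measured on all arrays 51.1% were lower on replicate 2. The gap was smaller between the other pairs, with a median replicate 2 minus replicate 1 of -0.05 in Col and -0.11 in ore15-1D. Without ore15-2 replicate 1 the median difference from Col was -0.66, and without replicate 2 it was -0.22, against 0.02 and 0.004 over all loci.

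Between the mutants the contrast was wider. Of the 42 genes 33 were higher and 2, HTA12 and HIS1-3, lower in ore15-1D than in ore15-2, with a median of 1.13, where 55.7% of all loci changed, 26.1% upward and 29.6% downward. Both ore15-1D arrays lay above both ore15-2 arrays for 38 of the genes and below them for 3, where 41.4% and 44% of all loci did so. CENH3 differed by 1.76 (limma, adjusted p = 0.00634), the largest positive difference, and the lowest adjusted p was that of HIS4, at 1.24 (adjusted p = 0.00376). All 5 H3.1, all 8 H4 and all 3 H2A.Z genes passed, and 0 of the 3 H3.3 genes did (-0.16 to 0.10), although AT4G40030 passed at 0.30 after quantile normalization (adjusted p = 0.031). The 2 mutants lie on different slides, so that genotype and slide cannot be told apart here without the Col arrays. With slide as a fixed block 0 histone genes and 0 of all 20272 loci passed, and the median of the histone genes was 1.14.

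Of the 41 genes measured on all arrays, 30 had both ore15-1D arrays above both Col arrays and these above both ore15-2 arrays, an order that 13% of all loci had. The opposite order was found for 1 gene, HIS1-3, and for 13.6% of all loci. The 30 held all 7 H4, all 5 H3.1, all 3 H2A.Z and both H2A.X genes as well as CENH3. The 10 genes with neither order were the 3 H3.3 genes, the H2B genes AT2G28720, AT5G02570, AT3G53650 and AT3G09480, the H2A gene RAT5, HTA12 and the H1 gene AT2G30620.

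The genes lie on all 5 chromosomes, with 10, 6, 10, 3 and 13 on chromosomes 1 to 5. The adjacent H3.1 genes AT5G10390 and AT5G10400 both rose, while neither of the adjacent H3.3 genes AT4G40030 and AT4G40040 passed. Each value rests on 1 probe, the brightest of its locus. For 15 genes other probes were present, and their difference between ore15-1D and Col had the same sign for 13, the exceptions being AT4G40030, from -0.28 to 0.13, and AT2G30620, from -0.04 to 0.04. In ore15-2 all 15 had probes of 1 sign. The other probe of HIS1-3 was above background on 4 of the 6 arrays only. Copies of H4 and of H3.1 are near-identical in their coding sequence, and how much signal their probes share was not tested.

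Genes that handle histones were also higher in ore15-1D. Of 29 chaperone, deposition and related chromatin genes 28 were measured, and 20 of them rose and 0 fell, with a median of 0.42. Over all loci tested 18.6% rose and 22% fell. The largest rise was that of DDM1, the remodeller that keeps heterochromatin methylated, at 1.20 ± 0.15 (limma, adjusted p = 0.00835). KNL2, which helps load CENH3, rose by 1.19 (adjusted p = 0.0134). TSK, which reads newly deposited H3.1, rose by 1.09 (adjusted p = 0.0116), and ATXR6 and ATXR5, methyltransferases of H3.1, by 1.08 and 0.69 (adjusted p = 0.0163 and 0.0123). FAS1, the large subunit of the chromatin assembly factor CAF-1 that deposits H3.1 and H4 at the fork, rose by 0.82 ± 0.09 (adjusted p = 0.00683), while its partner FAS2 was at 0.32 (adjusted p = 0.205).

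Deposition genes of the replacement variants all had positive differences in ore15-1D, and some of them passed. HIRA, which deposits H3.3, rose by 0.30 ± 0.08 (limma, adjusted p = 0.0349), and its partners UBN1 and UBN2 were at 0.16 and 0.15 and did not pass. PIE1 and ARP6, of the SWR1 complex that inserts H2A.Z, rose by 0.47 and 0.30 (adjusted p = 0.0125 and 0.0409). SWC4 and SWC6 of the same complex rose by 0.48 and 0.39 (limma, adjusted p = 0.0128 and 0.0382), while SWC2 was at 0.16 (adjusted p = 0.48). In ore15-2 the limma test called 0 of these 28 genes, and the median was -0.07. An unadjusted p below 0.05 was found there for 1 of the 28 and for 4520 of 20270 loci. Without either ore15-1D array 0 of the 28 passed in ore15-1D, and 12 and 10 passed without Col replicate 1 and Col replicate 2.

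**Figure D4:**
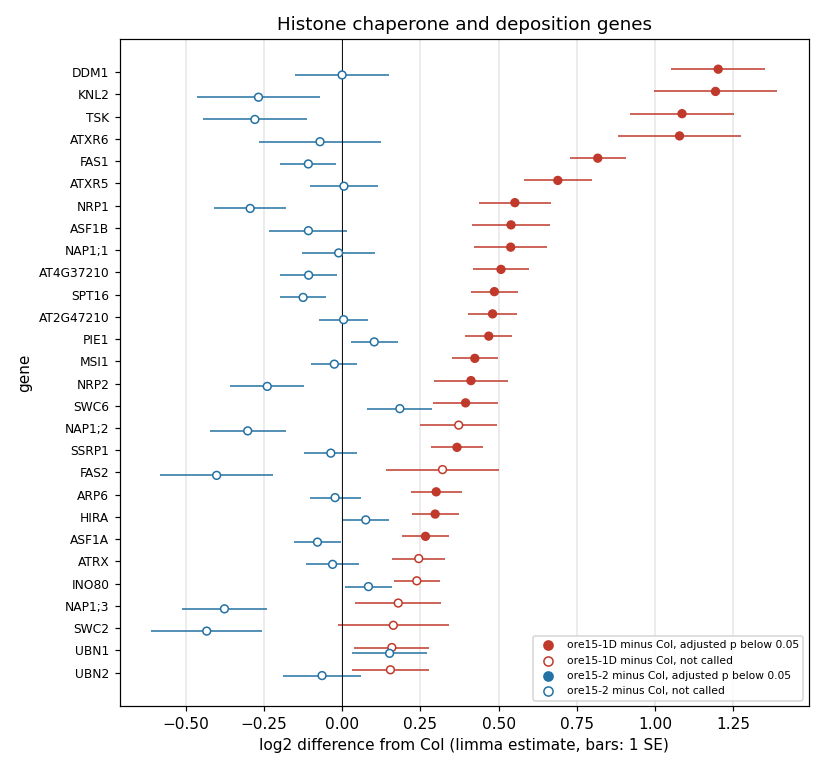
Difference from Col of 28 histone chaperone, deposition and related chromatin genes in ore15-1D (red) and ore15-2 (blue), in log2 units with bars of 1 SE of the limma fit; filled points have an adjusted p below 0.05. All 28 ore15-1D points lie right of 0, from 0.15 to 1.20, and 20 are filled; the ore15-2 points lie between -0.43 and 0.18.

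Genes of DNA replication itself moved with the replication histones. All 12 of a list of MCM, PCNA and ribonucleotide reductase genes and the polymerase gene ICU2 rose in ore15-1D (median 0.82), where 18.6% of all loci rose. Among them were PCNA2 at 1.296, MCM2 at 0.99 and ICU2 at 0.98 (limma, adjusted p = 0.00944, 0.0106 and 0.0082). In ore15-2 0 of the 12 passed (median -0.28), and 2 had an unadjusted p below 0.05, where 4520 of 20270 loci did. Of 8 markers of dividing cells, B1 and A1 cyclins, CDKB2 kinases, KNOLLE, AUR1 and HINKEL, 0 passed against Col in either mutant. An unadjusted p below 0.05 was found for 5 in ore15-1D and 2 in ore15-2. Over all loci it was found for 10684 of 20272 and for 4520 of 20270. All 8 had both ore15-1D arrays above both Col arrays (median 0.88), where 40.1% of all loci did so. The mean of these 8 relative to Col was 0.83 and 0.92 in ore15-1D, 0.23 and -0.23 in Col, and -0.31 and -1.25 in ore15-2, so that ore15-2 replicate 2 was again the lowest array. Between the mutants all 8 were higher in ore15-1D (median 1.71, limma, adjusted p from 0.00961 to 0.0255), as were all 12 replication genes (median 1.15), where 26.1% of all loci were. The mean of the 6 leaf markers was -0.61 and -0.78 in ore15-1D, -0.06 and 0.06 in Col, and 0.17 and 0.37 in ore15-2. The part of dividing cells in the histone differences was not tested.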

How the data were processed

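Total RNA of leaves of 3 genotypes was labelled with Cy3 and hybridised to 6 arrays, per the labels, which also give groups and replicate numbers. The submitters' processing notes name Agilent Feature Extraction 11.5, and the intensity it gives is background-subtracted, per the file headers. Tables of log2 values that the authors deposited, with no stated scaling, served as an alternative only. Each array has 45220 spots; 1417 controls and any spot marked as an outlier were dropped. Of 43603 probes 37257 match 1 TAIR10 locus in the deposited element table, and the brightest was taken for each of 28309 loci; 900 with several loci were left out. Symbols came from RefSeq (TAIR10.1), which names 20 of the 42 genes.

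The log2 of the intensity minus the 75th percentile of each array was taken, and loci were kept if 1 genotype or more had the probe well above background on both its arrays. Tests used limma 3.58.1 (lmFit and eBayes, 3 residual and 1.80 prior degrees of freedom) in R 4.3.3, checked on simulated data. P-values rest on the spread between the 2 samples of a genotype, pooled over the 3 genotypes and drawn toward that of all loci. The gap between the ore15-2 arrays therefore also enters the tests of ore15-1D against Col. Replicate arrays correlated at 0.995 (ore15-1D), 0.987 (Col) and 0.989 (ore15-2).

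The 42 genes and the comparison lists were chosen with earlier results of these data known. All 42 could be named, with those past the threshold and each class's largest and smallest differences in depth. So could up to 6 chaperone genes by size and up to 3 replication genes. FAS2, HIRA, UBN1, UBN2, PIE1, ARP6, SWC2, SWC4 and SWC6 were added for their roles after their values were seen. Alternatives were normexp (offset 50) with either scaling, quantile normalization alone, a stricter background filter or none, probe means, a fixed or random slide block, values within a slide, a replicate block, a fit of the compared genotypes only, the deposited table, and each array left out. Normexp, planned on mean spot signals, used the median signal and median local background. No sequences were used.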

Additional observations from a re-analysis of the deposited data

Results flagged for a closer look

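A probe matched to both H4 genes AT1G07820 and AT1G07660 was outside the comparisons, which use probes of 1 locus. It read 5.95 and 5.83 in ore15-1D, 5.24 and 4.96 in Col, and 4.79 and 4.35 in ore15-2, in log2 units relative to the 75th percentile of each array. The genotypes did not overlap, with a difference from Col of 0.79 in ore15-1D and -0.54 in ore15-2, and neither was tested. The probe of AT1G07820 alone gave 0.90 and -0.70, and that of AT1G07660 alone 0.25 and -0.27.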

How the results depend on the processing

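Of 92 differences of single histone genes that passed under at least 1 setting, compared with 1561 values under alternatives, 4 changed sign. Differences that passed under no setting, mostly small ones, were left out of this count. All 4 changes came after normexp with the 75th percentile, with none called there. They were RAT5 in ore15-1D at -0.47, AT5G10390 and HTB1 in ore15-2 at 0.012 and 0.014, and AT4G40030 between the mutants at -0.024. Class medians could change sign too. Under the same setting the H3.3 median went from -0.13 to 0.33 in ore15-1D and from -0.10 to 0.37 in ore15-2. The 29 calls in ore15-1D became 0 after normexp with the 75th percentile and 3 with slide as a fixed block, and ranged from 0 to 35 when each array was left out. The count of 0 in ore15-2 became 1 after normexp with quantile normalization, 1 in the authors' deposited table, and 0 to 16 when each array was left out. The 35 calls between the mutants became 0 after normexp with the 75th percentile and 0 with slide as a fixed block, as did the 11288 calls over all loci. In ore15-1D the 8237 calls over all loci became 0 and 3884 under these settings. The 20 chaperone calls in ore15-1D became 0 after normexp with the 75th percentile and 10 with slide as a fixed block, and ranged from 0 to 18 when each array was left out, and the 0 in ore15-2 became 2 after normexp with quantile normalization. The score of replication minus replacement histones became 0.83 in ore15-1D and -0.35 in ore15-2 with H3.3 alone. With all 6 replacement genes the ore15-2 score of -0.14 ranged from -0.235 to -0.0436 when each array was left out. An array left out leaves 1 in its genotype, assumed to vary like the others; the cause of the other changes was not tested. Over all loci, 3769 rose and 4468 fell in ore15-1D, against 4657 and 3687 with quantile scaling, 4733 and 3566 with normexp added to it, 4654 and 3375 in the deposited table, and 2713 and 5349 with no filter. The replicate numbers were not treated as pairing the samples. Deviations of same-numbered arrays correlated at -0.09, -0.01 and 0.13. With 2 arrays per genotype these values cannot show whether samples were paired. With the replicate number as a block 30, 0 and 34 histone genes passed in the 3 comparisons and 15 chaperone genes in ore15-1D.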
